A study of Homo sapiens with 4 samples.

Results

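The 47 genes described here make up the DNA replication machinery as listed by symbol: origin licensing factors, the MCM2 to MCM7 helicase and its activators, the replicative polymerases, the sliding clamp and its loaders, and the proteins that protect, seal and repackage the copied strands. The list was set by name and all 47 genes were found among the 37468 features of the files, so no measured value chose them. They were followed in 4 single-cell RNA libraries of the human cell line MSTO-211H, which comes from a pleural mesothelioma and was grown in suspension without serum, a culture the series title describes as mesothelioma-initiating cells. Drug_Radiation cells received 10 µM QTP and 4 Gy, Drug cells received 10 µM QTP alone, Radiation cells received 4 Gy alone, and Control cells received neither. QTP is the labels' short name for the compound used, and the title of the series speaks of dopamine receptor inhibition. Cells of all 4 groups carried the genotype WT and were collected 48 h after irradiation of the irradiated groups. Each group is 1 library of 1 cell line, so no difference below has a replicate check and no test was made. The 95% intervals given cover counting error only.

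Drug_Radiation held 6990 cells with a median of 18024.5 UMIs (unique molecular identifiers, each standing for 1 captured transcript), Drug 3802 cells with 20405, Radiation 2425 cells with 5299 and Control 3183 cells with 2318. Depth went with QTP, so QTP, depth and any library batch cannot be told apart by the design. Without QTP depth also went with radiation, being higher in Radiation than in Control. Since each group is 1 library, radiation cannot be told apart from depth and any library batch either. The 47 genes had 170826 UMIs in Drug_Radiation, 139578 in Drug, 19329 in Radiation and 12125 in Control, so ratios against the last 2 libraries have wider intervals. The 4 libraries shared 0 barcodes. Of the line's markers, KRT8, KRT18 and VIM stood at 1786 to 4661 CPM (UMIs per 1000000 nuclear-encoded UMIs) in every library, and MSLN and CALB2 were lower at 8.27 to 49.2 CPM. WT1 was below 2 CPM, and KRT19, UPK3B and PDPN were close to or at 0, so those mesothelial markers were all but absent. Among immune markers CD68 had 16.2 to 41.4 CPM, while the leukocyte marker PTPRC had at most 0.335 CPM.

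Before a cell copies its DNA, ORC, CDC6 and CDT1 load the MCM2 to MCM7 ring at origins in G1. CDC45 and the GINS complex then switch the ring on, polymerase alpha with primase starts each strand, and polymerases epsilon and delta extend them while riding on the PCNA clamp. Many of these genes are transcribed together at the G1 to S boundary by E2F factors, which the RB pathway restrains, and DNA damage that raises p53 and its target CDKN1A holds cells back at that boundary.

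E2F motifs were therefore looked for in the promoters, and the stretches that carry one are shown for 6 members on which the results below turn. RefSeq promoters of build GRCh38.p14, each covering 250 bases before to 50 bases after a gene's start, were found for 40 of the 47 members. Lower case is flanking sequence, capitals mark the motif, and all 6 are written 5′ to 3′ on the gene's own strand.
PCNA, chr20:5126654-5126701, minus strand: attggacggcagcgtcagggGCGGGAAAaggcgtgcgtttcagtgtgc
PCLAF, chr15:64381459-64381506, minus strand: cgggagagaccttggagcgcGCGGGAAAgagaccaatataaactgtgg
MCM3, chr6:52284889-52284936, minus strand: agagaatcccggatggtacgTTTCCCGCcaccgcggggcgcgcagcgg
MCM6, chr2:135876502-135876615, minus strand: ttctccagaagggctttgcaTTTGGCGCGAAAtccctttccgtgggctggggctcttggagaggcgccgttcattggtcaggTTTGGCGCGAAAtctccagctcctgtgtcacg
GINS2, chr16:85688958-85689005, minus strand: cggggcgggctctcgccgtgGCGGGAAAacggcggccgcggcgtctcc
LIG1, chr19:48170431-48170478, minus strand: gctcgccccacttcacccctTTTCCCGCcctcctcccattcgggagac
The letters searched were TTTCCCGC, TTTCGCGC, TTTGCCGC and TTTGGCGC on both strands. In MCM6 the motif stands in 2 runs, each of which reads as TTTGGCGC on one strand and as TTTCGCGC on the other, so its 4 matches overlap in pairs. A motif was present in 22 of the 40 members (55%), against 1090 of all 27305 genes with a promoter in the table (3.99%). The letters CCAAT, the box bound by NF-Y, were present on either strand in 26 of the 40 members (65%), against 39.7% of all genes. A match is a string of letters and not a measured binding site. In the radiation comparison under QTP the median centred ratio, defined below, was -0.28 over 20 members with an E2F motif and -0.30 over 14 without. Without QTP it was -0.13 over 20 members with a motif and 0.08 over 14 without.

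Drug was the library with the highest summed CPM of the replication genes. Summed over the 47 genes, the level was 1206 CPM in Drug_Radiation, 1601 CPM in Drug, 1349 CPM in Radiation and 1355 CPM in Control. Of the 47 genes, 40 had their highest level in Drug, 5 in Control, 2 in Radiation and 0 in Drug_Radiation. The lowest level fell in Drug_Radiation for 16 genes, in Radiation for 13, in Control for 18 and in Drug for 0. The same shares over all features were not counted, so these counts cannot be read as particular to the members. These CPM values share a total with every other gene, and the typical gene also had a higher CPM in the libraries with QTP. The median log2 ratio of all features with at least 5 CPM was 0.47 for Drug against Control, 0.33 for Drug_Radiation against Control, 0.19 for Drug_Radiation against Radiation, 0.12 for Radiation against Control and -0.14 for Drug_Radiation against Drug. Ratios below are log2 of CPM plus 1 with that median taken away, called centred ratios, so 0 means that a gene did as the median feature did. A member is called higher or lower at 1.5-fold from that median, which is a log2 distance of 0.58. For the 47 genes summed, without the added 1, the centred ratio was -0.23 (-0.25 to -0.20) for Drug against Control. It was -0.27 (-0.28 to -0.26) for Drug_Radiation against Drug. Against the median feature, the summed members were thus lower in Drug than in Control. Highly expressed genes weigh most in such a sum, and PCNA alone had 281 CPM in Drug and 337 CPM in Control. Counted gene by gene, 18 of 40 members lay above the median feature and 22 below, with a median centred ratio of -0.05. The lower sum in Drug thus does not describe the typical member.

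**Figure D1:**
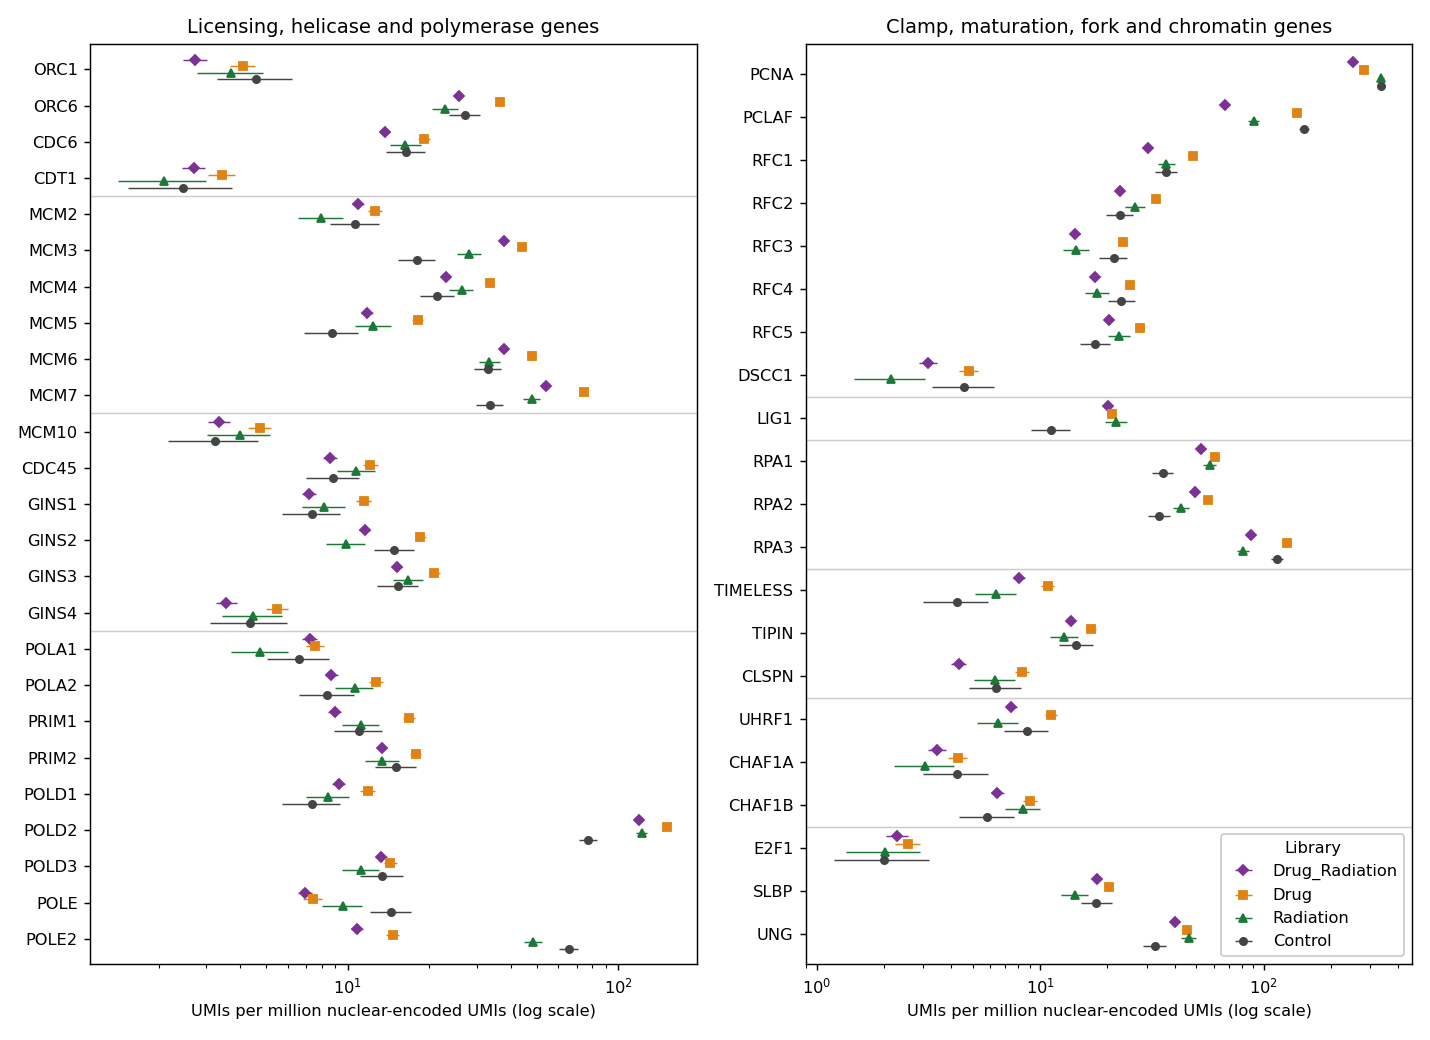
Level of each replication gene (CPM, log axis) in Drug_Radiation, Drug, Radiation and Control, grouped by role, with 95% counting intervals as bars; FEN1 is left out because 2 libraries held no UMI of it. Drug is the highest of the 4 for most genes, while the 5 genes highest in Control include PCLAF, PCNA, POLE and POLE2.

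Radiation given on top of QTP went with lower replication transcripts almost throughout. Against Drug alone, 36 of the 40 members that reached 5 CPM lay below the median of all features in Drug_Radiation and 4 above, with a median centred ratio of -0.30, where all features stand at 0 by construction. The interval lay below 0 for 33 members, where it did for 37.1% of all features, and above 0 for 1, LIG1, where it did for 34.2%. Most of the differences were small. 3 members were called lower, PCLAF, PRIM1 and CLSPN, where 0.835% of all 10305 features were, and 0 were called higher, where 1.56% of all features were. PCLAF was past 1.5-fold under every alternative, while with 5 CPM added PRIM1 was at -0.54 and CLSPN at -0.40, and PRIM1 was at -0.58 in cells of 6500 to 15000 UMIs. Of the 7 members under 5 CPM, 6 had at most 4.79 CPM in each of the 2 libraries (ORC1, CDT1, MCM10, DSCC1, CHAF1A and E2F1), and FEN1, the flap nuclease, had only 11 and 7 UMIs. Exons of FEN1 overlap those of FADS2 on the same strand (21187 UMIs over the 4 libraries) and of TMEM258 on the opposite strand (155931 UMIs), and how such reads were counted was not tested, so its low count cannot be read as low expression.

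The same 2 libraries also differed outside replication. Of the 48 genes of the G2 and mitosis list that passed, 28 were called lower and 0 higher in Drug_Radiation against Drug, with a median centred ratio of -0.62. Of the 25 p53 targets that passed, 5 were called higher and 0 lower, with a median of 0.32. CDKN1A, the p53-induced inhibitor of S-phase kinases, had 478 CPM in Drug_Radiation and 359 CPM in Drug, a centred ratio of 0.55. The part of these genes in the replication result was not tested. Of 32 other replication genes that passed and are not among the 47, 0 were called higher and 2 lower, with 25 below the median and a median of -0.26, close to that of the members.

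Without QTP the replication genes went both ways after radiation. Against Control, 22 of 39 members lay below the median of all features in Radiation and 17 above, with a median centred ratio of -0.10. 5 members were called lower, PCLAF, GINS2, POLE, RFC3 and RPA3, where 6.41% of all 9764 features were, and 1 was called higher, LIG1, where 7.27% were. The interval lay below 0 for 14 members, where it did for 23% of all features, and above 0 for 8, where it did for 25.9%, so these counts lie nearer the background. In cells of 6500 to 15000 UMIs, which left 770 Radiation cells and 173 Control cells, 15 of the 39 lay below and the median turned to 0.17. There PCLAF was at -0.21, RPA3 at -0.21, GINS2 at -0.32, POLE at -0.43 and RFC3 at 0.45, so none of the 5 was called, while LIG1 was at 0.97. These ratios have no interval here, and the range took only the deeper cells of Control, whose median was 2318 UMIs. Median depth in the range still differed, at 8566 UMIs in Radiation and 7775 in Control, so depth was not fully matched. In the same comparison 22 of 46 G2 and mitosis genes were called lower and 5 of 24 p53 targets higher, and CDKN1A had 393 CPM in Radiation and 172 CPM in Control, a centred ratio of 1.07.

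**Figure D2:**
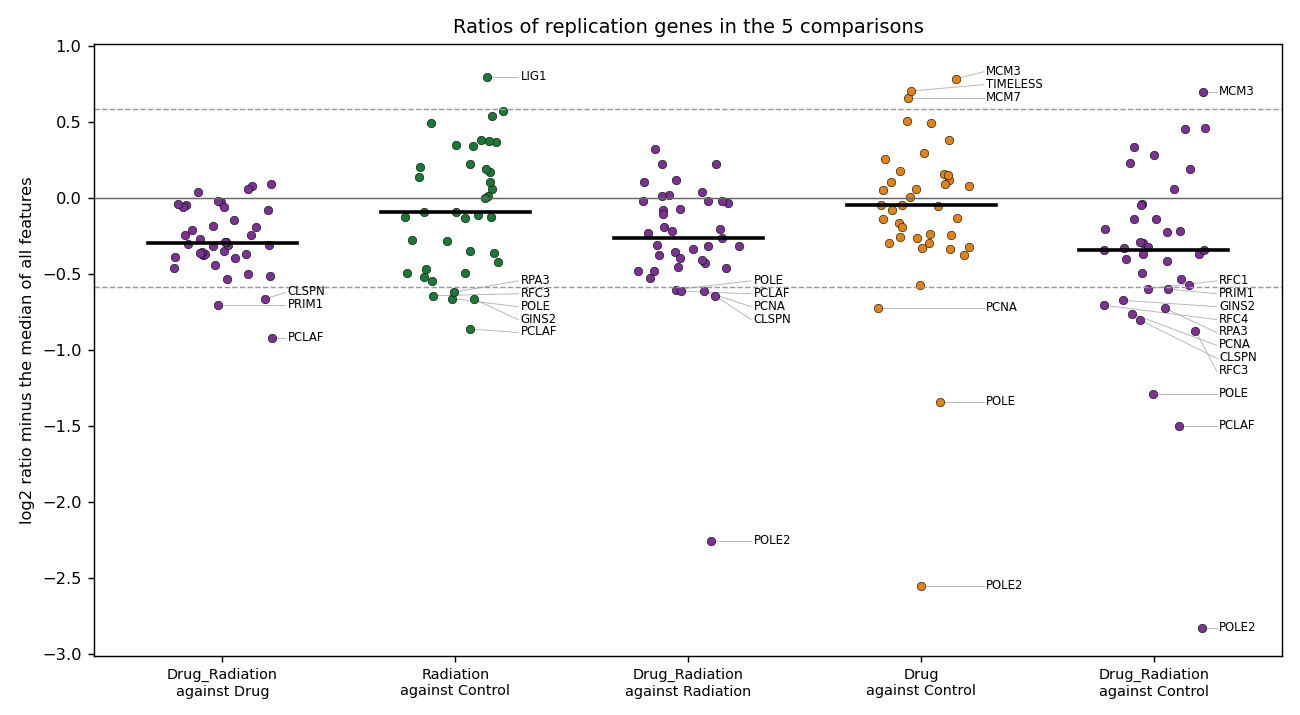
Centred log2 ratio (log2 ratio minus the median of all features) of each replication gene with at least 5 CPM in the 5 comparisons; black bars are medians, dashed lines mark 1.5-fold and genes past them are named. The members sit below 0 as a group in Drug_Radiation against Drug, and POLE2 stands far below the rest in each comparison that sets a library with QTP against one without.

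Of the 4 origin licensing genes 2 were measured well enough to compare. ORC6, a subunit of the origin recognition complex, had 25.7 CPM in Drug_Radiation, 36.4 CPM in Drug, 22.9 CPM in Radiation and 27.0 CPM in Control. It was lower in the irradiated library of both pairs, with centred ratios of -0.35 (-0.43 to -0.29) with QTP and -0.35 (-0.60 to -0.11) without, and neither reached 1.5-fold. CDC6, the ATPase that helps load the helicase, had centred ratios of -0.31 and -0.12 in those pairs, the second with an interval across 0. ORC1 and CDT1 had 2.09 to 4.58 CPM in the 4 libraries, under the 5 CPM needed.

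The 6 helicase subunits, which assemble into a single ring, did not share one pattern. MCM7 had 53.9 CPM in Drug_Radiation and 74.4 CPM in Drug, and 47.7 CPM in Radiation and 33.5 CPM in Control. MCM5 had 11.8 CPM in Drug_Radiation and 18.1 CPM in Drug, and 12.4 CPM in Radiation and 8.72 CPM in Control. Both were thus lower in the irradiated library with QTP and higher in the irradiated library without it. MCM3 had 37.8 CPM in Drug_Radiation and 44.2 CPM in Drug, and 28.0 CPM in Radiation and 18.0 CPM in Control. MCM4 had 23.1 CPM in Drug_Radiation and 33.5 CPM in Drug, and 26.3 CPM in Radiation and 21.3 CPM in Control. In MCM3 and MCM4 the CPM was likewise lower in the irradiated library with QTP and higher in it without. The centred ratio of MCM3 with QTP was only -0.08 (-0.14 to -0.02), and that of MCM4 without QTP was 0.17 (-0.07 to 0.44). MCM6 had 37.8 CPM in Drug_Radiation and 47.8 CPM in Drug, and 33.4 CPM in Radiation and 32.9 CPM in Control. MCM2 had 10.9 CPM in Drug_Radiation and 12.6 CPM in Drug, and 7.95 CPM in Radiation and 10.6 CPM in Control. MCM2 alone of the 6 had an interval wholly below 0 in Radiation against Control, at -0.49 (-0.94 to -0.12). Summed, the ring had 175 CPM in Drug_Radiation and 230.5 CPM in Drug, and 156 CPM in Radiation and 125 CPM in Control. The summed centred ratio was -0.25 (-0.28 to -0.23) for Drug_Radiation against Drug and 0.20 (0.10 to 0.31) for Radiation against Control. None of the 6 was called in either comparison.

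The helicase activators were lower with radiation under QTP. All 5 that passed, CDC45, GINS1, GINS2, GINS3 and GINS4, lay below the median of all features there, with a median centred ratio of -0.37. GINS2 had 11.5 CPM in Drug_Radiation and 18.5 CPM in Drug, and 9.84 CPM in Radiation and 14.9 CPM in Control. Its centred ratios were -0.50 (-0.64 to -0.44) with QTP and -0.67 (-1.06 to -0.36) without, the second past 1.5-fold. GINS3 had 15.2 CPM in Drug_Radiation and 20.8 CPM in Drug, and 16.7 CPM in Radiation and 15.3 CPM in Control. CDC45 and GINS1, whose partners form the same active helicase, had centred ratios of 0.14 and 0.01 in Radiation against Control, with intervals across 0.

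Of the 9 polymerase and primase genes, 1 was called lower in each radiation comparison. PRIM1, the catalytic primase subunit, had 8.95 CPM in Drug_Radiation and 16.9 CPM in Drug, a centred ratio of -0.71 (-0.89 to -0.67) and a call. In Radiation it had 11.2 CPM and in Control 10.95 CPM, a ratio of -0.09 (-0.46 to 0.29). Exons of PRIM1 overlap those of NACA on the same strand, and NACA had 554541 UMIs over the 4 libraries against 2997 of PRIM1, so how the overlap was counted could bear on PRIM1. POLA1, the catalytic subunit of polymerase alpha, had 7.22 CPM in Drug_Radiation and 7.56 CPM in Drug, and 4.74 CPM in Radiation and 6.59 CPM in Control. POLD2, a regulatory subunit of polymerase delta, had 119 CPM in Drug_Radiation and 151 CPM in Drug, and 122 CPM in Radiation and 77.2 CPM in Control. Its centred ratio was -0.21 (-0.24 to -0.18) with QTP and 0.54 (0.42 to 0.67) without.

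The 2 polymerase epsilon genes were low in both libraries with QTP. POLE2, the second subunit, had 10.8 CPM in Drug_Radiation, 14.7 CPM in Drug, 48.3 CPM in Radiation and 65.5 CPM in Control, from 1530, 1278, 692 and 586 UMIs. Both libraries with QTP were far below both without. The centred ratio was -2.55 (-2.77 to -2.48) for Drug against Control and -2.25 (-2.48 to -2.22) for Drug_Radiation against Radiation, the largest of any member in each. Over the alternatives tried, these 2 ratios ranged over -2.65 to -2.09 and over -2.26 to -1.91. POLE, the catalytic subunit, had 6.95 CPM in Drug_Radiation, 7.41 CPM in Drug, 9.56 CPM in Radiation and 14.4 CPM in Control. Its centred ratio was -1.34 (-1.70 to -1.14) for Drug against Control and -0.60 (-0.91 to -0.38) for Drug_Radiation against Radiation. POLE was called lower in Radiation against Control at -0.66 (-1.07 to -0.35), while in Drug_Radiation against Drug it was at 0.06 (-0.10 to 0.19).

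The clamp group held PCLAF, the only member called lower with radiation in both pairs. PCLAF, a small protein that binds the PCNA clamp and is made in proliferating cells, had 67.1 CPM in Drug_Radiation and 141 CPM in Drug, and 90.1 CPM in Radiation and 152 CPM in Control. Both irradiated libraries were below both unirradiated ones. Its centred ratio was -0.92 (-0.97 to -0.89) with QTP and -0.86 (-0.98 to -0.76) without. In cells of 6500 to 15000 UMIs the ratios were -1.22 with QTP and -0.21 without. Over all cells the difference between the 2 was -0.06 (-0.17 to 0.06). PCNA, the clamp itself and also a gene that p53 can raise, had 250.1 CPM in Drug_Radiation and 281 CPM in Drug, and 335 CPM in Radiation and 337 CPM in Control. The irradiated and unirradiated libraries differed little in PCNA, with centred ratios of -0.03 (-0.05 to -0.00) with QTP and -0.12 (-0.19 to -0.06) without. PCLAF and its partner thus parted. The clamp loader gene RFC3 had 14.4 CPM in Drug_Radiation and 23.5 CPM in Drug, and 14.5 CPM in Radiation and 21.3 CPM in Control. RFC3 had centred ratios of -0.53 and -0.64 and crossed 1.5-fold only in the second. The large loader subunit RFC1 had 30.4 CPM in Drug_Radiation and 48.3 CPM in Drug, a ratio of -0.51 (-0.59 to -0.47), and 36.8 CPM in Radiation and 36.7 CPM in Control, a ratio of -0.11 (-0.31 to 0.09).

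LIG1, the ligase that seals Okazaki fragments, was the only member above the median of all features after radiation in both pairs. It had 20.2 CPM in Drug_Radiation and 20.9 CPM in Drug, and 21.9 CPM in Radiation and 11.2 CPM in Control. The centred ratio was 0.09 (0.00 to 0.17) with QTP and 0.80 (0.53 to 1.19) without, so the Control library, with 100 UMIs, stood apart from the other 3.

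The single-strand binding protein RPA is made of 3 subunits that did not move together. RPA1, the large subunit, had 52.6 CPM in Drug_Radiation and 60.6 CPM in Drug, and 57.4 CPM in Radiation and 35.3 CPM in Control. RPA2 had 49.2 CPM in Drug_Radiation and 56.6 CPM in Drug, and 42.6 CPM in Radiation and 34.0 CPM in Control. RPA3, the small subunit, had 87.5 CPM in Drug_Radiation and 127 CPM in Drug, and 80.9 CPM in Radiation and 115 CPM in Control. RPA3 was lower in the irradiated library of both pairs, at -0.40 (-0.44 to -0.36) with QTP and -0.62 (-0.75 to -0.50) without, the second a call. RPA1 was at -0.06 (-0.12 to -0.01) and 0.57 (0.40 to 0.78), and RPA2 at -0.06 (-0.11 to -0.01) and 0.20 (0.01 to 0.41).

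Fork protection and chromatin copying genes rested on few UMIs in the 2 libraries without QTP. CLSPN, the adaptor that relays fork stalling to CHEK1, had 4.33 CPM in Drug_Radiation and 8.30 CPM in Drug, and 6.28 CPM in Radiation and 6.37 CPM in Control. Its centred ratio with QTP was -0.66 (-0.96 to -0.64), a call, and without QTP it was -0.13 (-0.63 to 0.37). TIMELESS, which forms the fork protection complex with TIPIN, had 8.04 CPM in Drug_Radiation and 10.8 CPM in Drug, and 6.35 CPM in Radiation and 4.25 CPM in Control. TIPIN had 13.7 CPM in Drug_Radiation and 17.0 CPM in Drug, and 12.8 CPM in Radiation and 14.5 CPM in Control. The partners thus differed in sign without QTP, where TIMELESS was at 0.37 (-0.10 to 1.05) and TIPIN at -0.28 (-0.63 to 0.04), with both intervals across 0. UHRF1, which guides maintenance DNA methylation behind the fork, had 7.45 CPM in Drug_Radiation and 11.2 CPM in Drug, and 6.49 CPM in Radiation and 8.72 CPM in Control. UNG, which removes uracil from new DNA, had 40.1 CPM in Drug_Radiation and 45.6 CPM in Drug, and 46.2 CPM in Radiation and 32.6 CPM in Control. UNG had a centred ratio of 0.37 (0.18 to 0.59) without QTP and -0.04 (-0.10 to 0.01) with it.

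The 2 radiation comparisons share no library, so they can be set side by side. Of 39 members measured in both, 19 lay below the median of all features in both, 1 above in both and 19 on opposite sides. This split was not counted over all features, so it cannot be read as particular to the members. The difference, the ratio with QTP minus the ratio without, had an interval below 0 for 19 members, where 30.3% of all 9586 features measured in both did, above 0 for 8, where 23.6% did, and across 0 for 12. The members most shifted downwards were MCM5 at -0.79 (-1.18 to -0.39), POLD2 at -0.74 (-0.88 to -0.61), LIG1 at -0.70 (-1.04 to -0.37) and MCM7 at -0.70 (-0.90 to -0.50). These 4 were genes with their lowest level in Control. The members most shifted upwards were POLE at 0.72 (0.35 to 1.10) and POLA1 at 0.60 (0.08 to 1.12). Over the 39 members the Pearson r between the 2 ratios was 0.26 and the Spearman rho 0.21, a description over genes that share a library within each ratio.

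**Figure D3:**
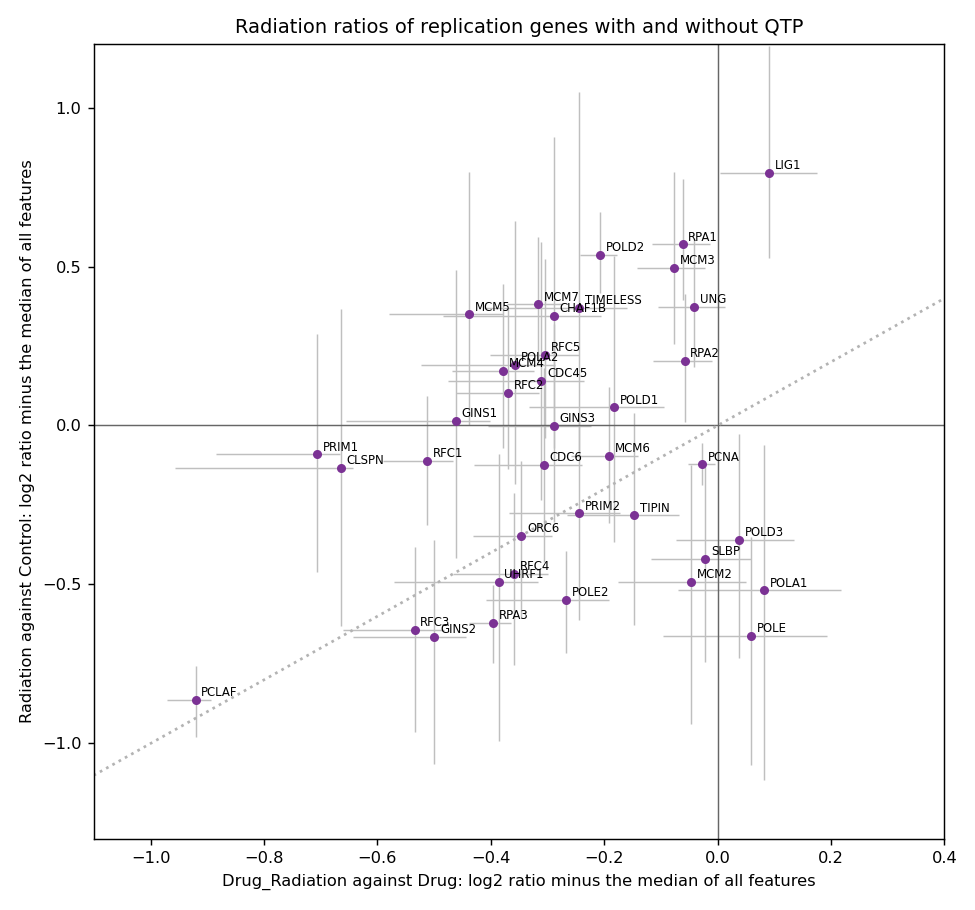
Centred log2 ratio of the 39 replication genes with at least 5 CPM in both comparisons, for Drug_Radiation against Drug (horizontal axis) and for Radiation against Control (vertical axis), with 95% counting intervals. Nearly all points lie left of 0 while they spread to both sides of 0 vertically, and PCLAF is the lowest on both axes.

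With QTP alone a few replication genes went each way. In Drug against Control, 18 of 40 members lay above the median of all features and 22 below, with a median centred ratio of -0.05. 3 members were called higher, where 5.85% of all 10353 features were, namely MCM3 at 0.78 (0.60 to 1.07), TIMELESS at 0.70 (0.41 to 1.39) and MCM7 at 0.66 (0.52 to 0.86). 3 were called lower, where 7.22% were, namely POLE2, POLE and PCNA, the last at -0.72 (-0.78 to -0.67) and at -0.26 without centring. These shares are near the background, and MCM3 and MCM7 turned to -0.09 and -0.21 when only cells of 6500 to 15000 UMIs were compared. That range left 1023 Drug cells and 173 Control cells, with medians of 10833 and 7775 UMIs, so depth still differed.

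With radiation in both libraries, most members stood lower with QTP when set against the median feature. In Drug_Radiation against Radiation, 31 of 39 members lay below the median of all features, with a median centred ratio of -0.26. Without centring the median log2 ratio was only -0.07, and 24 of the 39 lay below 0. 5 were called lower, POLE2, CLSPN, PCNA, PCLAF and POLE, where 3.89% of all 10158 features were, and 0 were called higher, where 4.26% were. PCNA was at -0.61 (-0.66 to -0.57) and PCLAF at -0.61 (-0.70 to -0.53), and both were at -0.42 without centring. POLA1 at 0.32 (0.06 to 0.79), MCM3 at 0.23 (0.09 to 0.39) and MCM2 at 0.22 (-0.01 to 0.55) stood at the other end. In cells of 6500 to 15000 UMIs the number called lower was 25 of 40, where 7.45% of all features were, so the count depends on which cells are compared.

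Drug_Radiation and Control differ in both agents. In Drug_Radiation against Control, 11 of 39 members were called lower, where 7.94% of all 10227 features were, and 1 higher, MCM3, where 7.11% were. The 11 were POLE2 at -2.83 (-3.07 to -2.79), PCLAF at -1.50 (-1.59 to -1.43), POLE at -1.29 (-1.65 to -1.11), RFC3, CLSPN, PCNA, RPA3, RFC4, GINS2, PRIM1 and RFC1. MCM3 was at 0.70 (0.51 to 0.97), against 0.05 in cells of 6500 to 15000 UMIs, LIG1 at 0.46 (0.23 to 0.82) and TIMELESS at 0.45 (0.12 to 1.09). In cells of 6500 to 15000 UMIs 20 of 42 were called lower, where 11.9% of all features were, and 0 higher, where 13.5% were. Drug_Radiation against Control shares its libraries with the comparisons above, so these ratios are not independent of theirs.

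Single cells show how the transcripts were shared out. After each cell was thinned to 1000 UMIs, a cell carried a mean of 1.14 member UMIs in Drug_Radiation, 1.5 in Drug, 1.28 in Radiation and 1.27 in Control. The share of cells with at least 5 member UMIs was 2.59% (2.23 to 2.99) in Drug_Radiation, 6.26% (5.51 to 7.08) in Drug, 4.25% (3.48 to 5.13) in Radiation and 4.32% (3.64 to 5.09) in Control. The share was highest in Drug and lowest in Drug_Radiation, with intervals over the cells of 1 library each that say nothing of variation between libraries. The libraries with QTP could also be thinned to 6000 UMIs, which left out 69 Drug_Radiation cells and 23 Drug cells. There the mean was 6.95 member UMIs in Drug_Radiation and 9.04 in Drug, and the medians were closer, at 6 and 7. At least 30 member UMIs were found in 0.665% of Drug_Radiation cells (0.487 to 0.886) and in 3.47% of Drug cells (2.91 to 4.10). No cell type that lacks these genes was present, so UMIs from free RNA could not be set apart from a cell's own.

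To see which members rise in the same cells, the cells of a library were ranked for each gene by the summed UMIs of the other 46 members, and the share of the gene's UMIs in the richest 10% of cells was taken. An even spread gives 10%. At 6000 UMIs per cell, 46 members had at least 50 UMIs and the interval of each lay above 10% in both libraries, with a median of 29.7% in Drug_Radiation and 33.4% in Drug. Over the 12161 other features the median was 9.94% in Drug_Radiation and 10% in Drug, and the interval lay above 10% for 18.8% of them in Drug_Radiation and 17.9% in Drug. The order of the genes was much alike in the 2 libraries, with a Pearson r of 0.90 and a Spearman rho of 0.88 over the 46 genes. The most concentrated members were from several roles. CDC45 had 60.9% of its UMIs in the richest 10% in Drug_Radiation and 59.6% in Drug, MCM10 had 49.2% and 62.4%, and CDC6 had 51.0% and 57.2% in the same order. ORC6 had 54.6% in Drug_Radiation and 49.6% in Drug, and CLSPN of the fork group had 54.1% in Drug_Radiation and 52.0% in Drug. The origin factor CDT1 was less so in Drug, at 18.5% (10.8 to 28.7), and had 31.2% in Drug_Radiation. At the other end POLD2 had 12.5% in both, RFC1 14.4% in Drug_Radiation and 15.8% in Drug, and UNG 14.9% in Drug_Radiation and 17.5% in Drug. These 3 genes were the closest of the named members to an even spread. Cells rich in members overlapped with those rich in G2 and mitosis genes, since 57.2% of the richest 10% in Drug_Radiation and 45.8% in Drug were also in the richest 10% for that list. CDKN1A was not concentrated there, with 9.49% of its UMIs in Drug_Radiation and 9.86% in Drug.

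**Figure D4:**
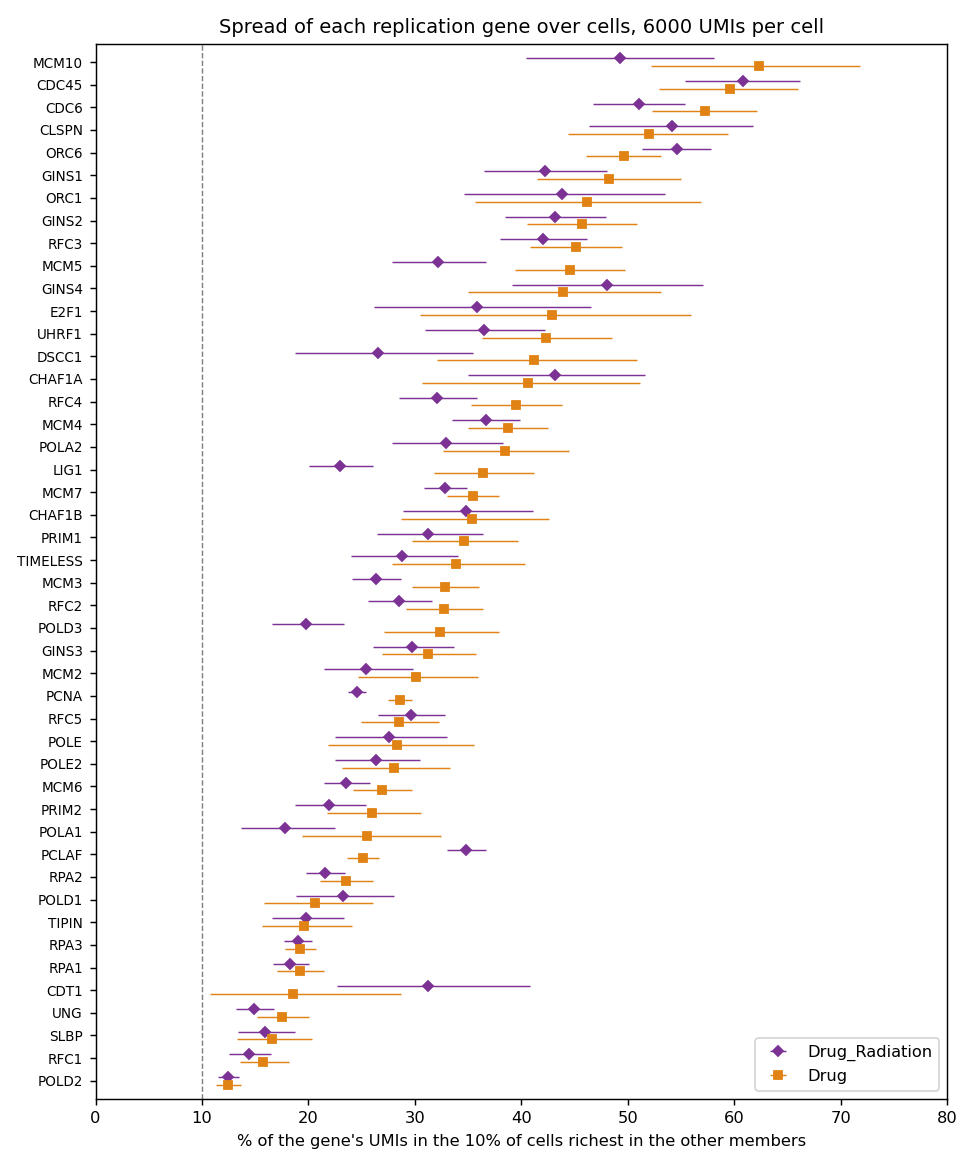
Share of each replication gene's UMIs (percent, with 95% counting interval) found in the 10% of cells richest in the other members, at 6000 UMIs per cell, in Drug_Radiation and Drug; the dashed line at 10% is an even spread. CDC45 is among the 2 highest and POLD2 the lowest in both libraries, and PCLAF is more concentrated in Drug_Radiation.

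Under QTP, members were mostly lower with radiation both in the cells rich in members and in the other cells. The richest 10% was chosen in each library by the members themselves, so a library with more member UMIs tends to have more there. Other features had no part in that choice, so their values below are no independent measure for the members. In the richest 10% the median log2 ratio of Drug_Radiation over Drug, not centred, was -0.57 over the 46 members, against -0.14 over 12161 other features with at least 50 UMIs in each library. The interval lay below 0 for 34 of the 46, where it did for 18% of those features, and above 0 for 0, where it did for 4.37%. In the other cells the median was -0.33 over the members and -0.13 over the other features. There the interval lay below 0 for 28 members, where it did for 38.7% of features, and above 0 for 2, LIG1 and POLD3, where it did for 10.1%. PCNA had 597 CPM in Drug_Radiation and 759 CPM in Drug in the richest 10%, a ratio of -0.35 (-0.44 to -0.26). In the other cells it had 204 CPM in Drug_Radiation and 211 CPM in Drug, a ratio of -0.05 (-0.10 to 0.01). PCLAF went the other way round. It had 221 CPM in Drug_Radiation and 356 CPM in Drug in the richest 10%, a ratio of -0.69 (-0.83 to -0.55). In the other cells it had 45.9 CPM in Drug_Radiation and 118 CPM in Drug, a ratio of -1.36 (-1.45 to -1.27), the lowest of the 46. The share of PCLAF in the richest 10% was accordingly higher in Drug_Radiation, at 34.8%, than in Drug, at 25.1%, while 36 of the 46 members were more concentrated in Drug. Cells were ranked on more member UMIs in Drug, a mean of 9.04 against 6.95 in Drug_Radiation. The part of that in the difference in concentration was not tested. The richest 10% is a fixed share of cells and not a cell cycle phase, and the other cells may include cells in S phase.

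The spread of POLE2 over cells was measured in all 4 libraries. At 1000 UMIs per cell its share in the richest 10% was 22.2% (12.7 to 34.5) in Drug_Radiation and 28.3% (17.5 to 41.4) in Drug, against 12.4% (6.94 to 19.9) in Radiation and 12.7% (8.52 to 17.9) in Control. In the 2 libraries without QTP the intervals include the 10% of an even spread, and they overlap those with QTP, which rest on 63 and 60 UMIs. The difference in spread itself was not tested. RFC3, the clamp loader gene, had 34.4% in Drug_Radiation, 31.9% in Drug, 38.9% in Radiation and 34.4% in Control, so it was concentrated in all 4. In Control it was the most concentrated of the 21 members with at least 50 UMIs. The interval lay above 10% for 15 of those 21 in Control, and for 11 of 15 in Radiation. An interval that reaches 10% was thus not particular to POLE2. The least concentrated of them was UNG in Control and POLE2 in Radiation. In the richest 10% POLE2 had 20.03 CPM in Drug_Radiation, 44.7 CPM in Drug, 57.9 CPM in Radiation and 85.7 CPM in Control. In the other cells it had 7.79 CPM in Drug_Radiation, 12.6 CPM in Drug, 45.4 CPM in Radiation and 65.7 CPM in Control. In the other cells POLE2 was thus higher without QTP, with intervals of 5.76 to 10.3 in Drug_Radiation and 9.09 to 16.9 in Drug, against 36.9 to 55.2 in Radiation and 56.6 to 75.8 in Control. In the richest 10% the intervals of Drug (26.1 to 71.6) and Radiation (31.6 to 97.1) overlapped. Whether the UMIs all come from the POLE2 transcript was not tested.

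**Figure D5:**
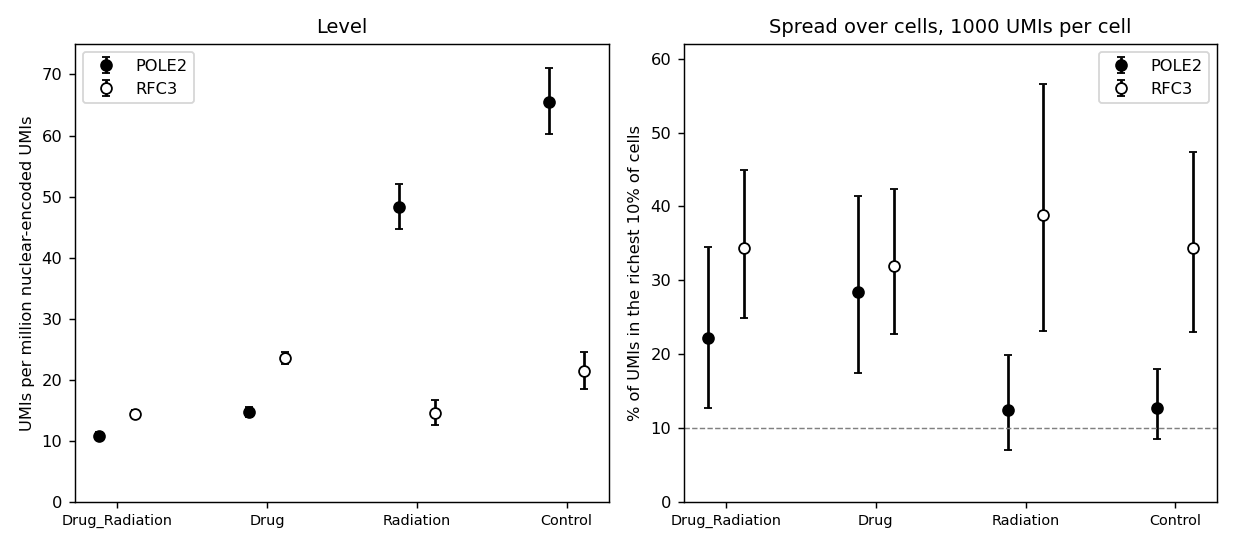
POLE2 (filled) and RFC3 (open) in Drug_Radiation, Drug, Radiation and Control: level in CPM on the left, and on the right the percent of UMIs in the 10% of cells richest in the other members at 1000 UMIs per cell, with 95% counting intervals and a dashed line at an even spread. POLE2 is higher in Radiation and Control, where its intervals on the right include 10%, while those of RFC3 lie above 10% in all 4 libraries. RFC3 had the highest share in Control among the 21 members with at least 50 UMIs there.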

How the data were processed

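The authors deposited raw UMI counts per gene and barcode for 4 libraries, 1 per group. The build hg38 and the program Seurat 4.3.3 are named, without a role, per the submitters' processing notes. Per the labels' protocols a PIPseq V T2 3′ kit was used, while another label names a 10x platform; which is right is unknown. The counted strand, annotation and aligner were not given in the sources used here. Per library, the lowest deposited barcode held 1009 UMIs in Control and over 6000 in the libraries with QTP (6244 and 6427), so barcodes had been filtered at different levels.

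Cells with at least 500 UMIs, 300 genes and under 20% mitochondrial UMIs were kept. UMIs were summed per library and scaled to the nuclear-encoded total as CPM. Log2 ratios of CPM plus 1 were centred on the median of all features that reached 5 CPM in either library. Intervals (95%) are exact Poisson for CPM, exact binomial for shares, and exact conditional binomial for ratios, which leave out the added 1 CPM. A printed ratio can therefore lie near an edge of its interval. Those of the radiation difference are normal approximations from the UMIs of the 4 libraries, around ratios that include the added 1 CPM. Only the conditional binomial intervals were tried on simulated data, drawn as Poisson counts, where they held the true value about as often as stated. Such counts follow the model the intervals assume, so this cannot show how they hold for real cells. At 6000 UMIs per cell the variance of member UMIs was 4.12 times the mean in Drug_Radiation and 6.37 times in Drug. No doublets were removed and cells were not clustered. The named members were the 3 highest and 3 lowest per comparison, the gene with most UMIs of each role, MCM2 to MCM7, PCNA and PCLAF; RFC1, RFC3, CDC6, CDC45, GINS1, MCM10, POLD3, RPA2 and the other members called were named with their values in view. The members and lists were chosen with earlier results of these data known. Python 3.11.15, numpy 2.4.6, scipy 1.17.1 and pandas 2.3.3 were used. TMM scaling (edgeR 4.0.16) and median-of-ratios scaling (DESeq2 1.42.0) were alternatives. Gene positions are from GENCODE 29.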

Additional observations from a re-analysis of the deposited data

Results flagged for a closer look

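6 members drew attention because Drug_Radiation against Drug and Radiation against Control lay on opposite sides of the median of all features, each with an interval clear of 0. The share of all features that meet this rule was not counted, so it is unknown whether 6 members is unusual. With 1 library per group the difference between the pairs was not tested. The centred radiation ratio with QTP minus that without was -0.79 for MCM5, -0.74 for POLD2, -0.70 for MCM7, -0.63 for RPA1, -0.57 for MCM3 and -0.26 for RPA2. All 6 had their lowest level in Control, the shallowest library. MCM5 and MCM7 stayed on opposite sides under every alternative tried. In cells of 6500 to 15000 UMIs, Drug_Radiation against Drug turned to 0.04 for POLD2, 0.16 for MCM3, 0.16 for RPA1 and 0.29 for RPA2, so for these 4 genes the opposite direction was not seen in cells of that range.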

How the results depend on the processing

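In Drug_Radiation against Drug, members below the median of all features numbered 34 to 40 of 40 under every alternative but one. In cells of 6500 to 15000 UMIs the number was 30 and the median centred ratio -0.20. Without centring and under TMM or median-of-ratios scaling, the number counts ratios below 0 instead. The median feature stood at -0.14 without centring, so the 40 of 40 counted there include members above that median. Counts of called members depended more on the choices, and the share of all features called the same way under the same choice follows each in brackets. For the radiation difference that share was counted under the main choices only, so its counts here have none. In cells of that range, 6 members were higher (8.53%) and 2 lower (10.2%) in Radiation against Control, 0 higher (15.6%) and 13 lower (11.8%) in Drug against Control, 0 higher (13.5%) and 20 lower (11.9%) in Drug_Radiation against Control, and 25 lower (7.45%) in Drug_Radiation against Radiation. There the difference between the radiation ratios had an interval below 0 for 10 members, and MCM7 and MCM3 in Drug against Control reversed to -0.21 and -0.085. Without centring, 4 were higher (12.0%) and 1 lower (3.89%) in Radiation against Control, 7 lower (2.25%) in Drug_Radiation against Drug, 11 higher (36.5%) in Drug against Control, 1 lower (2.22%) in Drug_Radiation against Radiation, and 5 higher (25.2%) and 3 lower (3.45%) in Drug_Radiation against Control. With no filter on low values, 3 were higher (5.12%) in Radiation against Control, 6 lower (0.704%) in Drug_Radiation against Drug, 8 higher (10.2%) in Drug against Control, 1 lower (1.48%) in Drug_Radiation against Radiation, and 4 higher (8.41%) and 5 lower (2.54%) in Drug_Radiation against Control. TMM gave 2 higher (8.79%) in Radiation against Control, 1 lower (3.03%) in Drug_Radiation against Radiation, and 3 higher (12.4%) and 7 lower (5.55%) in Drug_Radiation against Control. In Radiation against Control, median-of-ratios scaling gave 2 higher (9.33%) and equal weight per cell 4 (10.0%). At 20 CPM or more, which left 17 to 20 members in the comparisons that follow, 1 was lower in Drug_Radiation against Drug (0.557%), 1 in Drug_Radiation against Radiation (3.47%) and 7 in Drug_Radiation against Control (8.54%), and 10 had a radiation difference below 0. With 5 CPM added, 1 was lower in Radiation against Control (3.12%), 1 in Drug_Radiation against Drug (0.369%), 1 in Drug_Radiation against Radiation (2.77%) and 6 in Drug_Radiation against Control (5.43%). At 2-fold, 1 was lower in Drug_Radiation against Radiation (1.76%) and 3 in Drug_Radiation against Control (3.08%), 0 were higher (0.881%) or lower (1.21%) in Radiation against Control, 0 lower in Drug_Radiation against Drug (0.0291%), and 0 higher in Drug against Control (0.705%) or Drug_Radiation against Control (0.958%). Thinning to 6000 in place of 1000 UMIs moved the median share in the richest 10% to 29.7% against 19.4% in Drug_Radiation, and to 33.4% against 28.2% in Drug. These medians are over 46 members at 6000 UMIs, but over 37 in Drug_Radiation and 30 in Drug at 1000 UMIs. The causes were not tested. No paired analysis was possible because each group has 1 library, and none could be left out. Depth limits the libraries without QTP most, where Control held 18 UMIs of E2F1.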
